A study of Mus musculus with 2 samples.

Results

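Sox9, Sox8, Dmrt1, Fgf9, Nr0b1 and Ptgds are genes of the pathway that builds a testis, and their open chromatin was described here in the ovary. All 6 were taken by name from the GENCODE annotation of GRCm38, out of 21853 protein-coding genes. A peak, which is a stretch of open chromatin called by the authors, was linked to a gene when its centre lay in the gene or when the nearest start site of any protein-coding gene was that of the gene. By this rule 98 of 109169 peaks of replicate 1 and 113 of 114462 peaks of replicate 2 were linked to the 6 genes. A promoter peak was one that reached to 500 bp or less from a start site annotated for the gene, and footprints, short protected stretches called inside open chromatin, were counted where they lay inside the linked peaks.

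The data were DNase-seq of whole ovaries from female mice, 36 days old, of B6CASTF1/J, a first-generation cross between C57BL/6J and CAST. DNase I cuts DNA that is not covered by nucleosomes, so a pile of cuts marks an open site. The labels give 1 group with 2 biological replicates, a separate female for each, and no treatment, allele or second tissue. Both libraries name the same donor entry, which was read as the strain. In a whole ovary, fewer cells with an open site and less opening per cell cannot be told apart, and with 1 group of 2 libraries no test between conditions could be made, so every value below is a description.

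In the fetal gonad, SRY switches on Sox9 in the supporting cells of the male, and SOX9 directs those cells to become Sertoli cells. FGF9, a secreted ligand, and prostaglandin D2, made by the enzyme that Ptgds encodes, are signals that keep Sox9 active, SOX8 can act beside SOX9, and DMRT1 maintains the male fate after birth. NR0B1, also called DAX1, is an orphan nuclear receptor that modulates steroidogenic factor 1. In the ovary, the supporting cells become granulosa cells, in which FOXL2 and WNT signalling oppose Sox9.

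The DNA of the sites that the results turn on is given first, from the C57BL/6J reference (GRCm38), while the animals also carry a CAST copy of each chromosome. Capitals mark bases that lay in footprints of both libraries. The next 5 stretches are the parts common to the peaks of both libraries, on the plus strand: at Sox9 the site of highest value, +383.1 kb from the start site (chr11:113165181-113165400), and the site at -572.6 kb in the far upstream enhancer region (chr11:112209541-112209700), at Dmrt1 the site of highest value in a coding exon (chr19:25545801-25545980), at Ptgds the site of highest value upstream of the gene (chr2:25478421-25478640), and at Fgf9 the promoter site of highest value (chr14:58072061-58072300). Distances are from the nearest start site of the gene, and negative ones are upstream.
Sox9 +383.1 kb: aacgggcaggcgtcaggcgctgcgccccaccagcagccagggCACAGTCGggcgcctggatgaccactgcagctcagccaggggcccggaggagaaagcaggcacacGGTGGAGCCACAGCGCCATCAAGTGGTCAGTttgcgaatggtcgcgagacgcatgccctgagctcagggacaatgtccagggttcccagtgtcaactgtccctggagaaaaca
Sox9 -572.6 kb: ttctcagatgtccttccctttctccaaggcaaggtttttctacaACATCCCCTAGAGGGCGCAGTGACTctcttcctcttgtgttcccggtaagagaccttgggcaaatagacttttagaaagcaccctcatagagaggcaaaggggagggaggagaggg
Dmrt1 +40.2 kb: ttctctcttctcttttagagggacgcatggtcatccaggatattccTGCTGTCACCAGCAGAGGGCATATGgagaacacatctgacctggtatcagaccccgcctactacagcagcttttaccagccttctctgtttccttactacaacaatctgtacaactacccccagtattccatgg
Ptgds -8.48 kb: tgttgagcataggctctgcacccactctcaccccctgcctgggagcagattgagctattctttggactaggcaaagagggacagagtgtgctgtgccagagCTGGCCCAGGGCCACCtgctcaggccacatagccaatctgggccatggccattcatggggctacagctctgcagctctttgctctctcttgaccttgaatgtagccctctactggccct
Fgf9 promoter site: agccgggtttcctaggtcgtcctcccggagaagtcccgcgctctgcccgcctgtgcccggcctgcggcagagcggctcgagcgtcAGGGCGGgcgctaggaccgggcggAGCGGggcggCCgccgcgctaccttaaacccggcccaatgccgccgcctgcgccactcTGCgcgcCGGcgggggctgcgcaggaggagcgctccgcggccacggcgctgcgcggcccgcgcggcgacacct

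The promoters of Sox8 (chr17:25570637-25570936, minus strand) and Nr0b1 (chrX:86191525-86191824, plus strand) are printed from RefSeq (GRCm38.p6), 250 bases before to 50 bases after the start site, because they are the only printed sites that lie across a start site. RefSeq promoter sequences were at hand for 4 of the 6 genes, namely Sox8, Fgf9, Nr0b1 and Ptgds.
Sox8 promoter: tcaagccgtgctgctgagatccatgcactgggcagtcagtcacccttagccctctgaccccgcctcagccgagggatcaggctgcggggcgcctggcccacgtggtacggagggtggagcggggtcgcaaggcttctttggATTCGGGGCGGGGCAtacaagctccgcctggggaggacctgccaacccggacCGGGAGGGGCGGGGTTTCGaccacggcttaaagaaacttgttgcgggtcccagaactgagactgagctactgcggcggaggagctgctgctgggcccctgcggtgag
Nr0b1 promoter: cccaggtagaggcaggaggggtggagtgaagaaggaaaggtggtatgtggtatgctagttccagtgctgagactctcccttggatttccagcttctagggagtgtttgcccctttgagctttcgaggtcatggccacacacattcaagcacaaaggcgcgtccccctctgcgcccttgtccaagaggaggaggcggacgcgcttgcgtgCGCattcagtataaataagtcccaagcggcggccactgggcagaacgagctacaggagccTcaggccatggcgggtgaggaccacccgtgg

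A promoter peak was found in each library at 6 of the 6 genes, against 65.6% of all protein-coding genes. None reached the median of the 14332 promoters open in both libraries, whose highest peak had a median value of 6.71 in replicate 1 and 3.61 in replicate 2. Values are the signal values the authors deposited with each peak, and nothing in the sources used here says how they were scaled. Sox8, Sox9 and Fgf9 had clear promoter peaks, and Ptgds, Nr0b1 and Dmrt1 had weak ones. In the authors' shorter peak lists a promoter peak remained in each library at 4 of the 6 genes, against 61.7% of all genes. Ptgds had none in either shorter list, and Dmrt1 had 1 in replicate 1 and 0 in replicate 2.

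**Figure D1:**
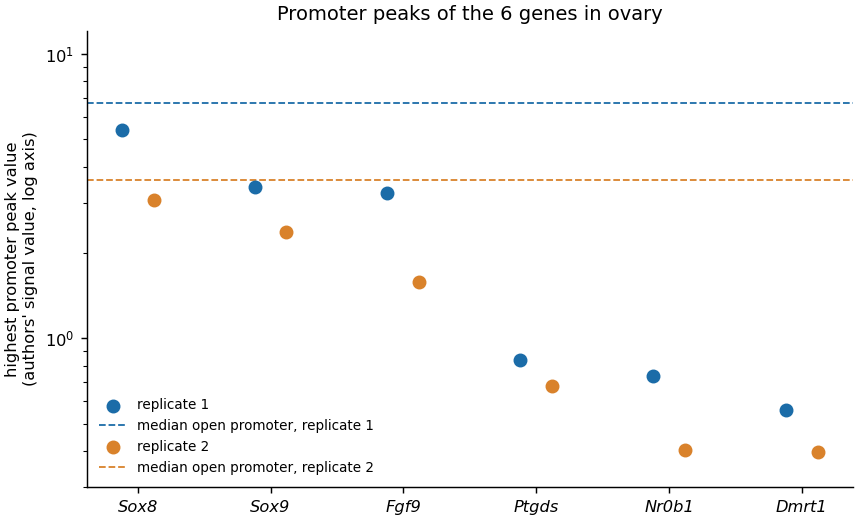
The value of the highest promoter peak of each gene (log axis, authors' signal value) is plotted for replicate 1 and replicate 2, and dashed lines give the median open promoter of each library. Sox8 comes closest to its medians, and Dmrt1 is lowest at 0.560 and 0.399.

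Sox8, which encodes a SOX factor of the same subgroup as SOX9, had the highest promoter value of the 6 genes, 5.39 in replicate 1 and 3.06 in replicate 2 (4.22 ± 1.64, SD, n = 2). That is percentile 41.9 of open promoters. Sox9 followed with 3.41 and 2.36 (2.88 ± 0.747, SD, n = 2; percentile 30.3), and Fgf9 with 3.25 and 1.58 (2.41 ± 1.18, SD, n = 2; percentile 25.9). Ptgds had 0.840 and 0.681 (0.760 ± 0.113, SD, n = 2; percentile 6.81). The promoter of Nr0b1 had 0.736 and 0.406 (0.571 ± 0.234, SD, n = 2; percentile 3.79), and that of Dmrt1 had 0.560 and 0.399 (0.480 ± 0.114, SD, n = 2; percentile 2.32).

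The order was the same in both libraries. Across the libraries, however, its neighbours overlapped: the lower value of Sox8 lay under the higher one of Sox9. So did those of Sox9 and Fgf9, of Ptgds and Nr0b1, and of Nr0b1 and Dmrt1. Each of these overlaps sets a replicate 2 value against a replicate 1 value, and promoters as a whole were lower in replicate 2. Fgf9 and Ptgds did not overlap even so, and Sox8, Sox9 and Fgf9 lay apart from Ptgds, Nr0b1 and Dmrt1 without overlap. That holds only while all 4 start sites of Fgf9 are used: at its most upstream start site alone, Fgf9 had a mean of 0.614, from 0.560 and 0.668, which is under the 0.760 of Ptgds. All values of a library were whole multiples of a step of 0.00651 in replicate 1 and 0.00654 in replicate 2, within a tolerance of 0.05 of a step. If 1 step is 1 read, which the files do not state, the Dmrt1 promoter rested on 86 and 61 reads and the Sox8 promoter on 827 and 468.

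Every one of these promoters had a lower value in replicate 2, as promoters did in the whole data: the median log2 ratio of replicate 2 over replicate 1 was -0.89 with an SD of 0.39 over all open promoters. The log2 ratios of the genes were -0.30 for Ptgds, -0.49 for Dmrt1, -0.53 for Sox9, -0.81 for Sox8, -0.86 for Nr0b1 and -1.04 for Fgf9. Those of Ptgds and, narrowly, Dmrt1 lay more than 1 SD above the median, so their raw values fell less in replicate 2 than those of most promoters did. These ratios are not corrected for the difference between the libraries as wholes. Sites outside promoters, whose values were mostly lower, had a median log2 ratio of -0.31 over all matched peaks.

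Sox9 lies at chr11:112782224-112787760 on the plus strand, with 1 annotated start site. Its highest promoter peak covered the 260 bp of chr11:112782021-112782280 in replicate 1 and the 400 bp of chr11:112782001-112782400 in replicate 2. The start site of BC006965, a non-coding transcript on the other strand, lies 248 bp from that of Sox9, so its promoter cannot be told apart from that of Sox9 in these data. The promoter peaks held 12 footprints in replicate 1 and 8 in replicate 2. The longest footprint common to both libraries there spanned 26 bp (chr11:112782094-112782119), -118 bp from the start site.

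The surroundings of Sox9 held more peaks than those of almost any other gene. It had 51 linked peaks in replicate 1 and 58 in replicate 2, against a median of 3 per protein-coding gene in each library, which placed it at percentiles 99.8 and 99.9. The territory nearest to its start site is long, 1.25 Mb, because the next protein-coding start sites are those of Kcnj2, 1716 kb away on the upstream side, and Slc39a11, 783.5 kb away on the downstream side. Per megabase of that territory Sox9 had 40.8 and 46.4 peaks, near the 40.1 and 42.0 per megabase of the whole genome. Of its linked peaks 34 and 33 overlapped a peak of the other library.

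The site of highest value linked to Sox9 was not its promoter. At +383.1 kb, in an intron of the long non-coding RNA 2610035D17Rik, a site had a value of 5.16 in replicate 1 and 3.05 in replicate 2, against 3.41 and 2.36 at the promoter. It ranked at percentile 96.4 of the 60186 distal pairs, which are peaks matched one to one between the libraries and outside the promoters of protein-coding genes, and their median value was 0.816. Its 5 and 4 footprints included one of 31 bp in replicate 1 and 35 bp in replicate 2, the longest footprint overlap of the 6 genes (the long run of capitals in the first sequence). Further shared sites stood between +350.1 and +390.4 kb, with 2.53 and 1.81 at +361.8 kb, 1.76 and 1.34 at +362.2 kb, and 1.99 and 1.30 at +390.4 kb. The last of these lies 377 bp from a start site of 2610035D17Rik, whereas the site at +383.1 kb lies 7677 bp from the nearest one. Of the 54 distal sites of the 6 genes, 4 lie within 500 bp of a start site of a non-coding gene. In each library 15 of the linked peaks lay inside this RNA gene, and a link by nearest start site does not show which gene a site acts on.

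**Figure D2:**
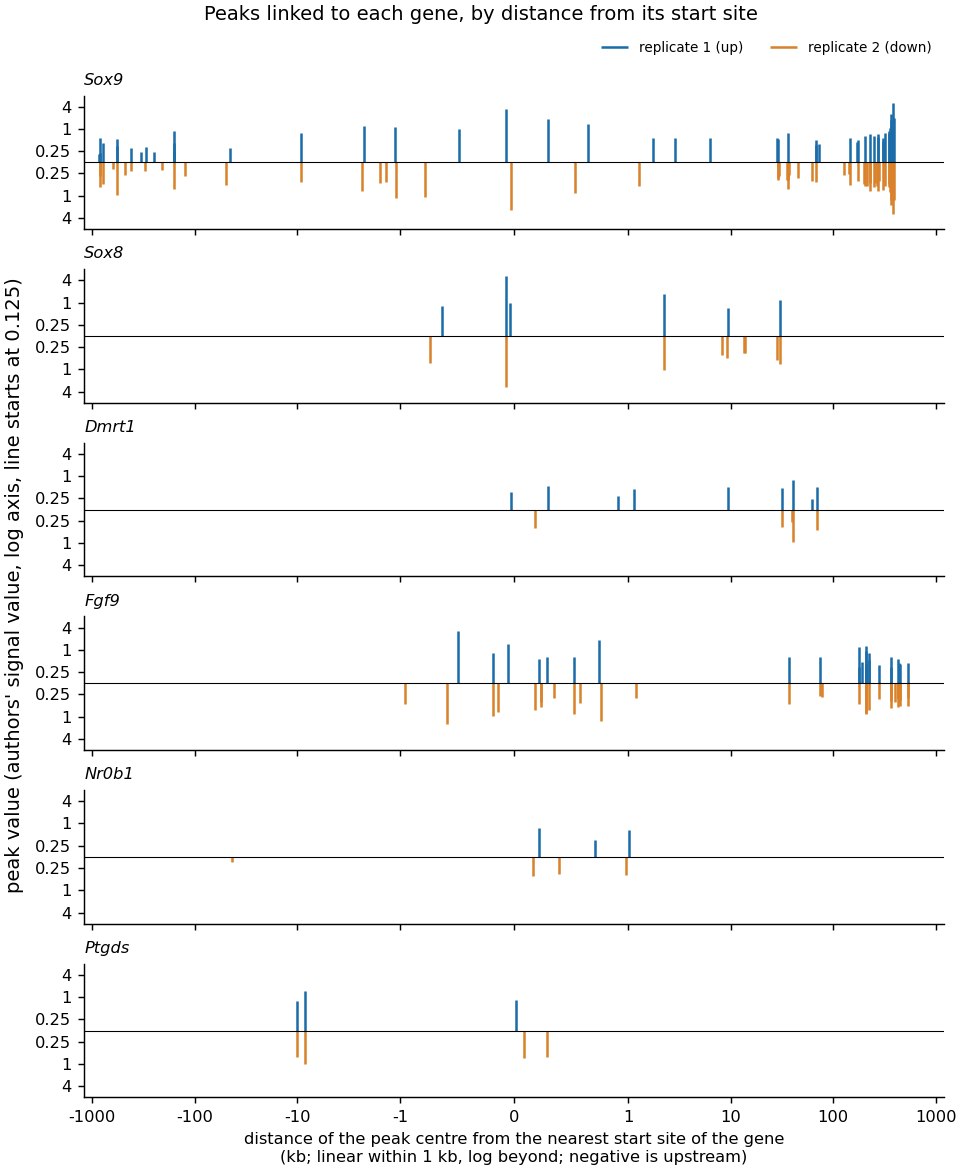
Each linked peak is a line at the distance of its centre from the nearest start site of the gene (kb, linear within 1 kb and log beyond), with replicate 1 drawn upward and replicate 2 downward and the length giving the peak value on a log scale. Sox9 carries 51 and 58 peaks on either side with the highest values near +383.1 kb, Fgf9 carries 26 and 33, and Nr0b1 and Ptgds carry 3 and 4 each.

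Upstream of Sox9 lie enhancers that are active in the fetal testis, among them TES and Enh13. No peak and no base with a listed q-value fell 10 to 14 kb upstream, where TES lies from general knowledge, in either library. The nearest shared site, at -9.20 kb, had 0.769 in replicate 1 and 0.432 in replicate 2. Between 550 and 580 kb upstream, the window that holds Enh13 from general knowledge, 1 site was open in both ovaries, at -572.6 kb, with 0.547 in replicate 1 and 0.936 in replicate 2. Its mean value was at percentile 44.5 of the distal pairs, and its lowest q-values were 0.000264 and 1.02e-10. The log2 ratio of 0.77 was the highest of all 66 shared sites of the 6 genes, and a footprint of 26 bp in replicate 1 and 28 bp in replicate 2 lay in it (the capitals of the Sox9 -572.6 kb sequence). Replicate 1 also listed a peak of 0.352 at -577.5 kb that had no partner in replicate 2. Whether the site at -572.6 kb is part of Enh13, and which factor covers its footprint, was not tested.

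Sox8, at chr17:25565892-25570686 on the minus strand, has a territory of 0.0411 Mb, far shorter than that of Sox9. Its highest promoter peak had the same limits in both libraries, chr17:25570641-25570880, with 4 footprints in each. Both runs of capitals in the Sox8 promoter sequence hold GGGCGG, the letters of a GC box. The start site of the antisense RNA 2810468N07Rik lies 144 bp from that of Sox8 and its exon covers the peak, so the promoters of both genes cannot be told apart. Replicate 1 also listed a lower promoter peak, with 0.957 at -36 bp from a start site of Sox8, that had no partner in replicate 2. Linked peaks numbered 6 in replicate 1 and 9 in replicate 2, of which 5 in each were shared. Inside the gene a coding exon at +2.25 kb had 1.65 and 1.06, with a footprint of 28 and 25 bp, and an intergenic site at +30.4 kb had 1.17 and 0.707.

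Dmrt1, the DM-domain transcription factor gene at chr19:25505618-25604329, had the weakest promoter of the 6. In replicate 1 it had 2 promoter peaks, the higher one 492 bp wide with 0.560 and a lowest q-value of 4.67e-05. In replicate 2 it had 1 peak of 78 bp with 0.399, a lowest q-value of 0.0402 and no footprint. Its most open site lay in a coding exon at +40.2 kb instead, where the value was 0.769 in replicate 1 and 0.936 in replicate 2, with q-values down to 2.88e-09 and 2.65e-17. There the value was higher in replicate 2, with a log2 ratio of 0.28. A footprint of 37 bp in replicate 1 and 29 bp in replicate 2 overlapped by 25 bp (the capitals of the Dmrt1 sequence), and a match to the consensus of CTCF, a factor that marks loop ends and boundaries in chromatin, lay inside that overlap. Introns at +31.7 and +69.0 kb held the other shared sites, with 0.488 and 0.373 at the nearer one and 0.495 and 0.445 at the farther one. The site at +69.0 kb is nearer to a start site of Dmrt3, and it was linked to Dmrt1 because it lies inside that gene. Of 9 linked peaks in replicate 1 and 5 in replicate 2, 4 in each were shared, and in the next gene downstream, Dmrt3, the promoter was weak as well, with 0.638 and 0.563.

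Fgf9, at chr14:58070547-58112720, has 4 annotated start sites, and its openness spread over several of them. The highest promoter peak, with 3.25 in replicate 1 and 1.58 in replicate 2, lay in an intron, -506 bp from the nearest of these start sites. Nearer to other start sites the shared sites were lower, with 1.47 and 0.753 at -57 bp, 0.821 and 0.962 at -185 bp, and 0.560 and 0.668 at +223 bp. With promoters narrowed to 250 bp on either side the value of Fgf9 dropped to 1.22, still above the 0.760 of Ptgds. Replicate 2 had more and wider promoter peaks there than replicate 1, 9 against 6, with 3023 against 1138 bases of listed q-values and 22 against 12 footprints. Over the whole data, too, replicate 2 had more wide peaks, with 1.80% over 600 bp against 0.885% in replicate 1, and the part of this in the Fgf9 values was not tested.

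Beyond the gene, Fgf9 had shared sites up to +531.5 kb on the downstream side, where the next protein-coding start site is 1066 kb away. It had 26 linked peaks in replicate 1 and 33 in replicate 2 (percentiles 97.6 and 98.7), of which 22 and 21 were shared, and 45.2 and 57.4 peaks per megabase of its territory. The most open of the distant sites were at +206.4 kb, with 1.24 and 0.818, and at +206.6 kb, with 0.938 and 0.831. Their peaks stood side by side in replicate 1. In replicate 2 both peaks began at the same base and the second covered the first, so they are not separate there. A site at +177.0 kb had 1.17 in replicate 1 and 0.465 in replicate 2, the lowest log2 ratio of all shared sites of the 6 genes, at -1.34.

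Nr0b1, at chrX:86191764-86195947, had shared sites only over its promoter and its coding exon. A broad peak of 680 bp in replicate 1 and 780 bp in replicate 2 reached from the promoter into the coding exon, wider than 99.4% of the peaks of either library, with values of 0.736 and 0.406. Its second shared site, at +1.02 kb in the coding exon, had 0.684 and 0.393. No distant site was shared, since the single far peak, at -43.8 kb with 0.177, was listed in replicate 2 alone. Peaks were sparser on the X chromosome, with 17.8 per megabase in each library against 40.1 and 42.0 in the whole genome. Among the 467 open promoters of the X chromosome, whose median value was 2.54, Nr0b1 stood at percentile 9.64.

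Ptgds, at chr2:25466709-25470046 on the minus strand, encodes the lipocalin-type prostaglandin D synthase. Its promoter peak, with 0.840 in replicate 1 and 0.681 in replicate 2, had lowest q-values of 0.00416 and 0.00769, and it overlapped exons of the gene. An intergenic site at -8.48 kb was more open, with 1.47 and 1.03, and its footprints shared a stretch of 16 bp (the capitals of the Ptgds sequence). A further shared site at -10.2 kb had 0.769 and 0.654. The gene lies among other lipocalin genes, and its territory is short, 0.0163 Mb, between the start sites of Lcn12 and Paxx.

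**Figure D3:**
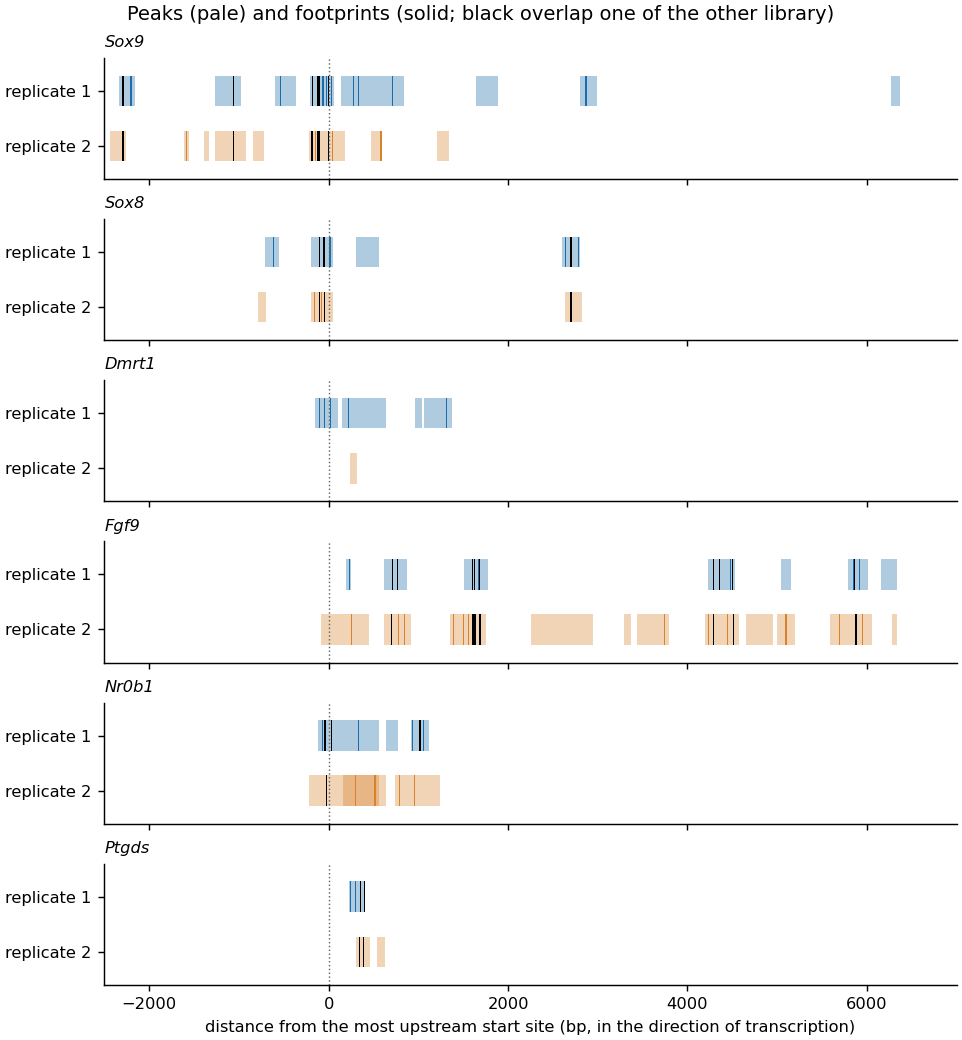
Peaks (pale) and footprints (solid, black where they overlap one of the other library) are drawn by distance from the most upstream start site of each gene (bp, in the direction of transcription), with replicate 1 above replicate 2. Sox8 shows the same 240 bp peak in both libraries, Dmrt1 shows 1 narrow peak of 78 bp in replicate 2, and Fgf9 shows peaks over several kilobases of its 5' part.

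At Sox9, Dmrt1 and Ptgds, 3 of the 6 genes, the highest linked peak lay outside the promoter in both libraries. Of the 14332 protein-coding genes whose promoter was open in each library, 17.9% had their highest linked peak outside the promoter in both. At Sox8, Fgf9 and Nr0b1 the promoter peak was the highest in each library. The margin was small for Nr0b1, where 0.736 and 0.406 at the promoter stood beside 0.684 and 0.393 in the exon.

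Taking the linked peaks of the 6 genes as 1 set, 72.4% of those in replicate 1 overlapped a peak of replicate 2, against 75.5% of all peaks, and 61.1% of those in replicate 2 overlapped a peak of replicate 1, against 71.5% of all peaks. Footprints lay in 83.7% and 75.2% of them, against 81.2% and 78.0% of all peaks. Each library had 197 footprints inside these peaks, of which 64 in replicate 1 and 67 in replicate 2 overlapped a footprint of the other library. Sox9 held 100 and 93 of the footprints and Fgf9 held 50 and 67, so both genes make up most of any total over the set. Of the shared footprints 6 had more than 20 bp in common, 4 at Sox9, 1 at Sox8 and 1 at Dmrt1. The median over all of them was 7.5 bp. The share of all footprints that overlap between the libraries was not computed, so whether these footprint counts are usual was not tested.

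Of 66 sites matched one to one between the libraries, 52 were lower in replicate 2, and of all such pairs 79.2% were. The median log2 ratio was -0.39 over the sites of the 6 genes and -0.41 over all 79447 pairs, whose SD was 0.49. Promoter sites differed more than distant ones. The medians were -0.62 for the 12 promoter sites, 6 of them at Fgf9, and -0.32 for the 54 distal sites. Over all pairs of each class they were -0.78 and -0.31. The sites of the 6 genes thus lay near the ratio of the libraries as wholes, and the range was -1.34 to 0.77.

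**Figure D4:**
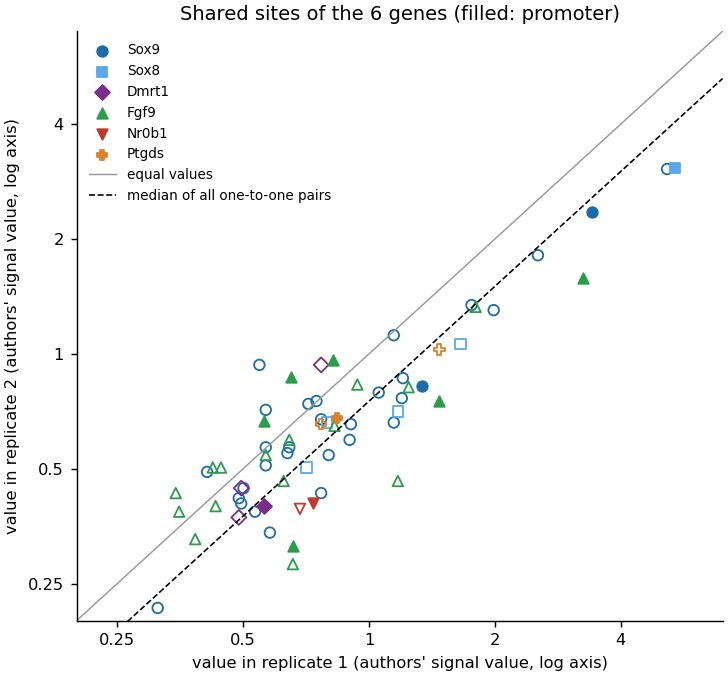
Values of the 66 shared sites in replicate 2 are plotted against those in replicate 1 (authors' signal value, log axes), by gene, with filled symbols for promoter sites. Most sites lie near the dashed line, the median log2 ratio of -0.41 over all pairs, with the Sox9 -572.6 kb site above it and the Fgf9 +177.0 kb site below it.

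The sequences of these sites were searched on both strands for the letters of factors known from gonads, within 75 bp of the site centre. SOX letters (ACAAAG or ACAATG) were found at 8 of the 54 distal sites, which is 14.8%, against 16.3% of all distal pairs. NR5A letters (CAAGGNCA), those of steroidogenic factor 1 and its relative, were found at 11.1% against 10.8%, and AP-1 letters (TGANTCA) at 7.41% against 5.98%. DMRT letters (ACANTGT, which overlap the SOX letters in ACAATGT) were found at 4 sites, 7.41% against 4.24%, namely at Sox9 -790.0, +29.1 and +383.1 kb and at Fgf9 +177.0 kb. No site of the 6 genes held the forkhead letters GTAAACA of FOXL2-type factors, which 2.05% of all distal pairs held.

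Other letters were about as common or rarer at the distal sites of the 6 genes than at all distal pairs. RUNX letters (TGTGGT) were at 9.26% against 10.6%, TEAD letters (GGAATG) at 9.26% against 9.34%, GATA letters (AGATAA) at 5.56% against 5.95%, the E-box CAGGTG at 9.26% against 12.3%, and the GC box GGGCGG at 7.41% against 10.9%. The CRE letters TGACGTCA were at none of the sites, against 0.331%. The CTCF consensus, added after the long footprints had been seen, matched at 2 of the 54 distal sites, Dmrt1 +40.2 kb and Sox9 +390.4 kb, or 3.70% against 7.78%. Only exact matches were counted. The shared footprint of the Sox9 -572.6 kb site holds letters that differ from the consensus at 1 position. Whether CTCF binds there was not tested, and near matches were not searched at the other sites. At these site numbers 1 site is close to 2 percentage points, and a match is a run of letters and not a binding site.

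GC boxes were found at 3 of the 12 promoter sites, against 51.0% of all promoter pairs. Fgf9 alone has 6 of these 12 sites, so they are not spread evenly over the genes. In the RefSeq windows of 300 bases, the Sox8 promoter was the only one of 4 with a GC box, which 47.7% of 20143 promoters held. The Fgf9 window (chr14:58072436-58072735) lies outside the highest promoter peak of Fgf9, and the printed Fgf9 promoter site under that peak held GC boxes. SOX letters were in the windows of Nr0b1 and Ptgds, against 25.1% of promoters, and AP-1 letters in that of Ptgds, against 7.00%. The 4 windows also differed in CpG content, given as the observed over the expected number of CG pairs. It was 0.880 for Fgf9, 0.647 for Sox8, 0.551 for Nr0b1 and 0.0804 for Ptgds, against a median of 0.588 over all these promoters.

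**Figure D5:**
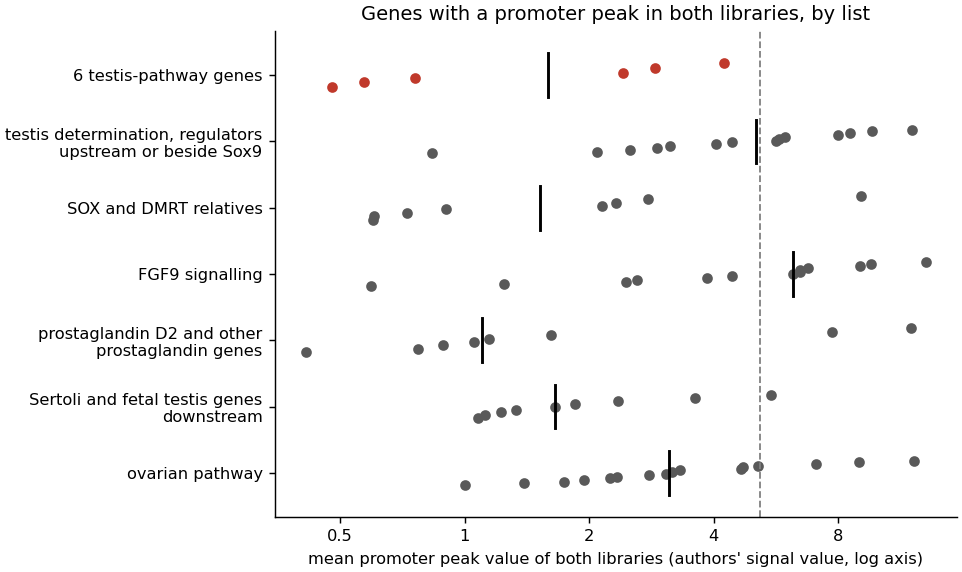
Each point is a gene with a promoter peak in both libraries, at its mean promoter value (authors' signal value, log axis), with a bar at the median of each list and a dashed line at the median of all open promoters, 5.17. The 6 genes have a median of 1.59, against 5.05 for the regulators of testis determination and 3.11 for the ovarian pathway.

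The genes around the 6 in the pathway were taken as lists. Of 15 regulators of testis determination that act before or beside Sox9, 14 were open at the promoter in each library, with a median value of 5.05. Over all protein-coding genes 65.6% were open in this way, with a median of 5.17. Sry, on the Y chromosome, had no promoter peak in these females. Kdm3a, a histone demethylase that helps to activate Sry, had 15.2 in replicate 1 and 8.89 in replicate 2, and Map3k4, a kinase upstream of Sry, had 12.9 and 6.32. The 6 genes themselves had a median of 1.59.

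Of 12 other SOX and DMRT genes, 8 were open in both libraries, which is 66.7% and near the 65.6% of all protein-coding genes. Their median was 1.52, against 5.17 over all open promoters, and they were led by Sox4 with 11.7 and 6.43 and Sox13 with 3.76 and 1.78. Sox10, Dmrta2 and Dmrtb1 had no promoter peak in either library, and neither had Dmrtc2. Of 13 genes of FGF9 signalling, 13 were open, against 65.6% of all genes, with a median of 6.20, and all of them except Fgfr4, at a mean of 1.24, and Fgf16, at 0.594, had a higher mean promoter value than Fgf9. Etv5, a target of FGF signalling, had 18.5 and 7.51, and Frs2, an adaptor of FGF receptors, had 13.6 and 5.52.

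Among 10 prostaglandin genes, 8 were open in both libraries, which is 80.0% against 65.6% of all genes, with a median of 1.10. The highest were Ptges3, a prostaglandin E synthase that is also a chaperone partner, with 17.0 and 7.01, and Ptger4, a prostaglandin E2 receptor, with 9.98 and 5.46. The receptors of prostaglandin D2 were the closed ones: Ptgdr had a peak of 0.378 in replicate 1 alone and Ptgdr2 had none. Hpgds, the other prostaglandin D synthase, had 0.410 and 0.419, under the values of Ptgds.

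Of 16 genes that act in Sertoli cells or the fetal testis after Sox9, 9 were open in both libraries, which is 56.25% against 65.6% of all genes, with a median of 1.65. Pdgfra, a growth factor receptor, had 7.28 and 3.72, and Ptch1, the receptor of desert hedgehog, had 4.57 and 2.63. Col9a3, Cst9 and Gata1 had no promoter peak in either library, nor did Hsd17b3, Rhox5 and Tsx. Of 16 genes of the ovarian pathway, 16 were open, against the same 65.6%, with a median of 3.11. Ctnnb1, which encodes beta-catenin, had 17.7 and 6.64, and Znrf3, a brake on WNT receptors, had 11.9 and 6.12. Foxl2, the granulosa cell regulator that opposes Sox9, had 6.14 and 3.19.

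Markers of the cells of the ovary and of the testis were read beside these values. Promoters of 65.6% of all protein-coding genes were open in both libraries. Of 12 granulosa cell markers, 11 were open at the promoter in each library, which is 91.7%, and their summed promoter values were 37.4 in replicate 1 and 22.5 in replicate 2, with Cyp19a1 at no peak. Of 12 Sertoli cell markers, 9 were open, which is 75%, with sums of 19.0 and 11.5, but 4 of the 12 are among the 6 genes, Amh is on both lists, and Gata1, Rhox5 and Tsx had no peak. Of 8 germ cell and oocyte markers, Dazl and Kit were open, which is 25%, with sums of 15.1 and 6.21, and Bmp15, Ddx4, Figla, Gdf9, Nobox and Zp3 had no promoter peak. The part of any cell type in the values of the 6 genes was not tested.

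For each gene except Fgf9, the list gene whose promoter values were nearest on the log2 scale over the 2 libraries was found among 77 candidates. It was Kitl for Sox8, with 5.58 in replicate 1 and 3.06 in replicate 2, at a distance of 0.05. For Sox9 it was Etv4, with 2.99 and 2.23, at 0.21. Ptgds was nearest to Ptgfr, with 0.853 and 0.694, at 0.04, Nr0b1 to Fgf16, with 0.749 and 0.438, at 0.11, and Dmrt1 to Fshr, with 0.632 and 0.491, at 0.35.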

How the data were processed

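DNase-seq peaks, footprints and per-base false discovery rates of 2 mouse ovary libraries were used as the authors deposited them. Per the descriptions deposited beside the files, each library was called separately from its own filtered alignments to mm10, the same build as GRCm38. The aligner and the callers, with their settings, were not given in the sources used here. Peak heights are a deposited signal value per peak, of a scale that no label or header states. The deposited q-values (false discovery rates) are listed only under 0.05. Footprints carry a deposited score of 0.01 in every line, so only their positions were used. The depth of the libraries was not given in the sources used here, and whether the steps of the signal values reflect it is not stated.

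The longer of the 2 deposited peak lists of each library gave the main results. Start sites were those of protein-coding transcripts in GENCODE vM21. The promoter value of a gene was its highest peak within 500 bp of a start site, and means carry the SD over both libraries. Peaks and footprints counted as shared when they overlapped by at least 1 base, and a pair was formed where each peak was the other's longest overlap. A peak was promoter or distal by whether it came within 500 bp of a start site. Motif letters were searched within 75 bp of the centre of the common stretch of each pair, and in promoter windows from RefSeq (GRCm38.p6). Computation used Python 3.11.15, numpy 2.4.6 and pandas 2.3.3, with matplotlib 3.10.9 for figures. The functions that link, match and search were checked on simulated intervals and sequences. No test between groups was possible.

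The 6 genes and the lists, of 82 genes in 6 lists and 3 lists of markers, were chosen with earlier results of these data known. All 6 genes were named, with the 2 highest genes of each list, up to 3 in alphabetical order without a promoter peak, the nearest list gene of each member, and neighbours that share a site. An item under this rule is not reported here. Dmrtc2, Hsd17b3, Rhox5, Tsx, Hpgds, Ptgdr, Ptgdr2, Foxl2, Dmrt3, Fgfr4 and the markers without a peak were named after their values had been seen. Alternatives were the shorter peak lists, promoters of 250 and 1000 bp, the most upstream start site, links within 100 kb or by nearest start site alone, an overlap of 50% of both peaks, and each library alone. Start sites of all transcripts, peak centres in place of edges and the CTCF consensus were added after the data had been seen.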

Additional observations from a re-analysis of the deposited data

How the results depend on the processing

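Within the alternatives run, the count of 6 genes with a promoter peak in both libraries held under every setting except the shorter lists, where it was 4. Promoter values moved only for Fgf9, to 1.22 within 250 bp and 0.614 at the most upstream start site. The shorter lists gave no value for Dmrt1 and Ptgds, which lack a promoter peak there in at least 1 library. Counts of shared linked peaks moved most. With the shorter lists they were 19 for Sox9, 3 for Sox8, 9 for Fgf9, 1 for Ptgds and 37 for all 6 genes, where the longer lists had 34, 5, 22, 3 and 71. Within 100 kb of a start site there were 10 for Sox9, 9 for Fgf9 and 34 in all. With an overlap of 50% of both peaks there were 3 for Sox8, 1 for Dmrt1, 14 for Fgf9, 1 for Nr0b1 and 46 in all. With a single library, shared peaks became all linked peaks of the library kept, between 51 and 58 for Sox9, 6 and 9 for Sox8, 5 and 9 for Dmrt1, and 98 and 113 in all. Footprints in linked peaks were 123 in the shorter lists and 197 in the longer ones. Of all values recomputed, 132 were counted as within their limits and 20 as moved. The limits were wide, since the 4 genes in the shorter lists and the 51 linked peaks of Sox9 in replicate 1 alone were among the 132. The promoter values of Dmrt1 and Nr0b1 in replicate 2 were 61 and 62 steps, and those of Ptgds 129 and 104 steps in replicates 1 and 2. Nr0b1 was in both shorter lists and Ptgds in neither, so the gene with fewer steps was the one kept. Their lowest q-values in replicates 1 and 2 were 1.53e-07 and 3.26e-05 for Nr0b1, and 0.00416 and 0.00769 for Ptgds. What decided which promoters were lost was not tested.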
